A study of Mus musculus with 11 samples.

Results

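Protocadherin transcripts were examined in the striatum of BACHD mice, a model of Huntington's disease, after short treatment with 2 inhibitors of transcription elongation. All genes whose name begins with Pcdh were taken from the table of normalized read counts, and those with a value of at least 10 in at least 3 of the 11 libraries were kept. This left 55 of 66 protocadherin genes, out of 20957 genes listed and 16768 that passed the same filter. The 55 comprised 43 clustered genes (3 of 11 alpha, 19 of 21 beta and 21 of 22 gamma genes) and all 12 non-clustered genes. The family was picked after the alpha gene Pcdhac2 had been seen to be lower in the SPI-77 libraries, so all values of SPI-77 against DMSO are given here as a description and support nothing.

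BACHD animals (FVB/N background) are heterozygous for a bacterial artificial chromosome with the full-length human mutant HTT gene under its own regulatory sequences. All 3 groups carried this transgene, and libraries of mice without it were not analysed here. Subcutaneous injections were given on 4 days, of the vehicle DMSO (4 libraries), SPI-24 (4 libraries) or SPI-77 (3 libraries), and the striatum was taken 6 h after the last dose. SPI-24 and SPI-77 are small molecules that block the binding of the elongation factor Spt5 to RNA polymerase II, and the study describes them as chemically distinct. The dose, age and sex of each animal are not given in the labels, and the study used animals of both sexes. The p-values rest on the spread between libraries within groups, pooled over the 3 groups, and each library is labelled a biological replicate.

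Protocadherins are the largest group of the cadherin superfamily, transmembrane proteins with extracellular cadherin repeats that bind the same protein on a neighbouring cell. Alpha, beta and gamma genes lie in 3 adjoining arrays, each neuron uses a few of their promoters chosen largely at random, and the resulting combination serves neurons to tell their own dendrites and axons from those of other cells. The non-clustered genes are spread over the genome and show regional expression in the brain, where they act in axon growth, synapse formation and cell sorting.

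The libraries differed in ways that bear on every value below. Recovered depth ran from 10.2 to 33.8 M reads. The SPI-24 4 and SPI-77 3 libraries held 1464 and 550 of the kept genes at 0, against 17 to 149 in the other 9 libraries. The medium spiny score, the mean log2(normalized count + 1) of the 23 of 24 markers of striatal projection neurons that passed the filter, was 9.88 to 11.7 in DMSO, 8.16 to 11.3 in SPI-24 and 7.85 to 8.44 in SPI-77 libraries. Their summed normalized count was 51312 to 165880 in DMSO, 21764 to 142968 in SPI-24 and 18949 to 24205 in SPI-77 libraries, and of the 23 only Gpr6 stood at 0, in SPI-77 3. All SPI-77 libraries thus lay below all DMSO libraries in this score, and so did SPI-24 2 and SPI-24 3. The score of 16 thalamic markers, none of them at 0, was 7.86 to 10.1 in DMSO, 9.16 to 11.4 in SPI-24 and 9.74 to 10.4 in SPI-77 libraries, with summed counts of 5507 to 27769, 15074 to 62629 and 24387 to 34396. The cholinergic interneuron score (7 markers) was 6.36 to 7.57 in DMSO, 1.78 to 6.83 in SPI-24 and 1.76 to 3.77 in SPI-77. The ependymal score (6 markers) was 7.78 to 8.20, 3.56 to 8.65 and 6.24 to 7.06. Scores of cortical, astrocyte, oligodendrocyte, oligodendrocyte precursor, microglia, endothelial and choroid plexus markers overlapped between SPI-77 and DMSO libraries. The summed counts of 2 of these lists did not. They were 55750 to 63510 in DMSO and 73229 to 75498 in SPI-77 for astrocyte, and 2778 to 3599 and 3860.5 to 4566 for endothelial markers. Astrocyte markers went both ways, with log2 fold changes below 0 for 4 of 9. Gfap had a mean of 23368 with SPI-77 against 8505 with DMSO, and Gja1 1227 against 2515. The sexes were not balanced either. Xist, transcribed from the inactive X of females, read 3333 to 4662 in DMSO 1, DMSO 3 and SPI-24 1, 2 and 4 and at most 7.70 in the other 6 libraries, where Y-linked Ddx3y read 78.6 to 310, so that 2 of 4 DMSO, 1 of 4 SPI-24 and 3 of 3 SPI-77 libraries had low Xist. In pieces of tissue, fewer cells of a type and less RNA per cell cannot be told apart.

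In the DMSO libraries the level of the clustered genes differed by class and by place in the arrays, which lie on chromosome 18 within 889.3 kb from the start of Pcdha1 to that of Pcdhgc5. Alpha and gamma genes share constant exons at the end of their array, to which each variable first exon is spliced, whereas beta genes have no such exons. In the GENCODE annotation of GRCm38, 46.4 to 51.4% of the exon bases of the kept alpha genes, 33.2 to 68.5% of those of the gamma genes and 90.3 to 100% of those of the beta genes belonged to no other gene, so levels are given per kb of these unshared bases. The median level was 4.63 normalized counts per kb over the alpha, 7.49 over the beta, 18.4 over the gamma and 36.9 over the non-clustered genes.

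Within the alpha array only the last gene was well represented. Pcdhac2, a C-type gene whose promoter is used more uniformly than those of the other alpha genes, reached 26.2 counts per kb in DMSO, while Pcdha3 and Pcdha12 had 3.69 and 4.63, and 8 of the 11 alpha genes did not pass the filter. Among the beta genes Pcdhb20 (30.8 counts per kb), Pcdhb7 (26.4) and Pcdhb22 (19.3) were the 3 highest in DMSO, by count as well as by level, and Pcdhb21 (2.37) was lowest. The beta genes thus spanned a wide range with no gene standing apart.

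The end of the gamma array carried the most. Pcdhgc3 and Pcdhgc5, both C-type genes, had 86.7 and 72.3 counts per kb in DMSO, and Pcdhgc4, a C-type gene known from mice to be needed for the survival of neurons, had 24.9. The 18 A-type and B-type gamma genes had 5.42 to 31.7. The C-type genes supplied 46.7 ± 2.49% (SD, n = 4) of the summed gamma counts in DMSO, 50.9 ± 3.68% (n = 4) in SPI-24 and 51.2 ± 4.40% (n = 3) in SPI-77 libraries, and the ranges of the 3 groups (44.1 to 49.5%, 48.2 to 56.1% and 46.2 to 54.6%) overlapped.

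**Figure D1:**
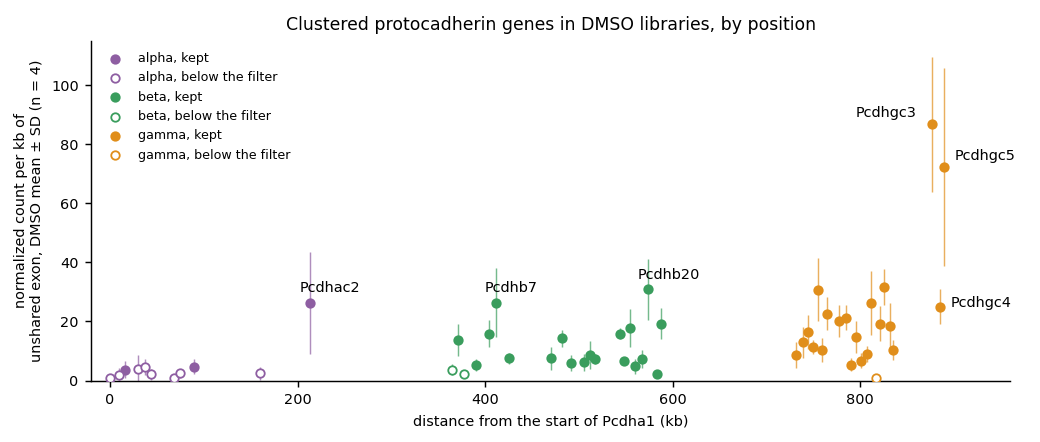
Mean normalized count per kb of unshared exon in the 4 DMSO libraries, with the SD, for each clustered protocadherin gene, against its distance in kb from the start of Pcdha1. Filled points passed the filter on low values and open points did not; Pcdhgc3 (86.7) and Pcdhgc5 (72.3) at the end of the gamma array lie above all others, and Pcdhac2 (26.2) above all other alpha genes.

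The DMSO libraries themselves differed in clustered transcripts. Their summed normalized count was 1964, 3447, 1991 and 2770 in DMSO 1 to 4, and DMSO 2 was the highest of the 4 for 31 of the 43 genes, while DMSO 1 and DMSO 3 were each the lowest for 19. DMSO 2 and DMSO 4 also had the highest medium spiny scores of the group (11.7 and 11.2, against 9.88 and 10.5) and were the libraries of the group with low Xist, so the parts of tissue makeup and sex in this spread cannot be told apart. The non-clustered sum was 7622, 7790, 5632 and 8327, with Pcdh1 supplying the most in every library.

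The family was picked on SPI-77 against DMSO, and SPI-24 against DMSO shares the DMSO libraries of that comparison. The SPI-24 libraries did not enter the choice, but the DMSO libraries did. The fold changes with SPI-24, here and in the paragraphs that follow, are thus not independent of the choice. None of the 55 protocadherin genes was called, a call being an adjusted p below 0.05 with at least a 2-fold change in limma's moderated test over all 16768 genes, and 0% of all genes were called. At an unadjusted p below 0.05 there were 0 of the 55 and 625 of all genes, and edgeR and DESeq2 on the recovered reads also called 0 protocadherin genes. In no protocadherin gene did all SPI-24 libraries lie below all DMSO libraries, as 0.817% of all genes did, or above them, as 0.99% did.

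Of the 43 clustered genes 35 had a fold change below 0 on the log2 scale and 8 above, with a median of -0.36, while 9037 of the 16768 genes lay below 0 and their median was -0.02. The summed clustered count was 2155, 2303, 1746 and 2501 in SPI-24 1 to 4, a mean of 2176 ± 320.0 (SD, n = 4) against 2543 ± 709 (n = 4) in DMSO, and 3 of the 4 values lay inside the range of the DMSO libraries. Among the libraries with high Xist, SPI-24 1, 2 and 4 (2155, 2303 and 2501) lay above DMSO 1 and DMSO 3 (1964 and 1991), while with low Xist SPI-24 3 (1746) lay below DMSO 2 and DMSO 4 (3447 and 2770). By class the summed counts were 74.4% of the DMSO mean for alpha, 85.1% for beta, 86.6% for gamma and 96.4% for the non-clustered genes.

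How closely the data bound a change by SPI-24 differed by class. The 95% interval left out a 2-fold reduction for 10 of the 12 non-clustered genes, but for only 4 of 19 beta, 2 of 21 gamma and 0 of 3 alpha genes. The log2 fold change of Pcdhgc3 was -0.01 (95% interval -0.67 to 0.66), that of Pcdh10 was -0.34 (-0.75 to 0.06) and that of Pcdhac2 was -0.32 (-1.57 to 0.93), so a 2-fold reduction lies outside the interval for Pcdhgc3 and Pcdh10 and inside it for Pcdhac2. The lowest fold changes belonged to Pcdhga8 (-1.58 ± 0.97 SE) and Pcdhb3 (-1.53 ± 1.04). Both rested on 1 library: Pcdhb3 read 47.4, 44.8 and 40.9 in SPI-24 1 to 3 and 0 in SPI-24 4, and Pcdhga8 read 30.2, 42.2, 15.1 and 0. In SPI-24 4, where 3 reads are worth a normalized count of 1.81, 8 of the 43 clustered genes stood at 0, although its summed gamma count of 1842 was the highest of the group.

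SPI-77 against DMSO, which uses the same 4 DMSO libraries, showed lower values for every clustered gene. All 43 fold changes lay below 0, from -2.67 for Pcdhac2 to -0.21 for Pcdhb22, with medians of -2.30 over the alpha, -1.0 over the beta and -1.23 over the gamma genes beside -0.01 over all genes. The alpha median rested on 3 genes of low count and was -1.08 with a pseudocount of 5. The summed count of the clustered genes was 1291, 1152 and 918 in SPI-77 1 to 3, a mean of 1120.0 ± 189 (SD, n = 3), each below the lowest DMSO library. All 3 had low Xist, and the DMSO libraries with low Xist had 3447 and 2770. By class the mean sums were 16.3% of DMSO for alpha, 49.3% for beta and 42.7% for gamma, against 87.7% for the non-clustered genes. The non-clustered sum is weighted by its most abundant gene, Pcdh1, at 120% of its DMSO mean. Of the 12 non-clustered genes 9 had fold changes below 0, with a median of -0.59. Of the 55 genes 13 met the call rule in the lower direction, against a background of 5.28% of all genes, and 0 in the higher direction, against 1.12%. All SPI-77 libraries lay below all DMSO libraries for 27 of the 55 genes, where 15.3% of all genes did so, and above them for 1, where 17.2% did. As the family was picked on this contrast, nothing is read from these counts.

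**Figure D2:**
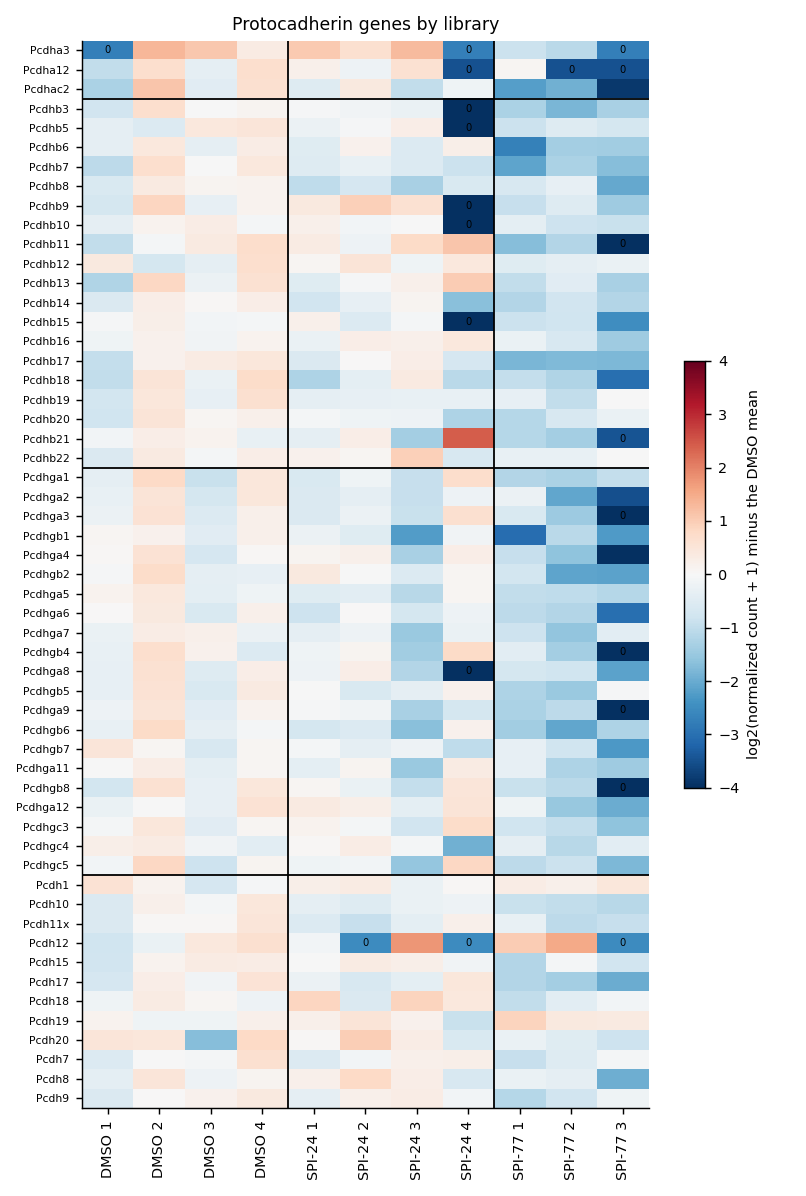
Each row is 1 of the 55 protocadherin genes (alpha, beta and gamma in array order, then non-clustered) and each column 1 of the 11 libraries; colour gives log2(normalized count + 1) minus the mean of the 4 DMSO libraries, and a 0 marks a value of 0. Most clustered rows are lower in the SPI-77 columns, and the zeros of the clustered genes lie mostly in SPI-24 4 and SPI-77 3, with 8 each.

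The share of clustered transcripts within the family does not depend on how libraries are scaled. Clustered genes supplied 25.6 ± 4.19% (SD, n = 4) of all protocadherin counts in DMSO, 23.5 ± 2.17% (n = 4) in SPI-24 and 14.8 ± 2.49% (n = 3) in SPI-77 libraries. The single libraries ranged from 20.5 to 30.7%, from 21.2 to 26.4% and from 12 to 16.7%, so that every SPI-77 library lay below every other library. This share leans on Pcdh1, whose mean was 3448 of a non-clustered sum of 7343 in DMSO and 4121 of 6439 in SPI-77 libraries. The share without Pcdh1 was not taken, so whether the groups separate without that gene is not shown.

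Pcdhac2 was the alpha gene with enough reads to be followed. It read 26.4, 141, 47.4 and 102 in DMSO 1 to 4, then 45.3, 87.1, 32.3 and 58.4 in SPI-24 1 to 4, and 13.3, 16.5 and 3.57 in SPI-77 1 to 3. Each SPI-77 library was lower than each library of the other groups, although DMSO 1, at 26.4, was itself far below DMSO 2 and DMSO 4. The log2 fold change was -2.67 ± 0.62 (SE) for SPI-77 against DMSO. Pcdha3 and Pcdha12 stood at or below 16.8 in every library, at 0 in 3 libraries each, and their groups overlapped.

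Among the beta genes Pcdhb6, Pcdhb7, Pcdhb11 and Pcdhb17 met the call rule with SPI-77. Pcdhb17 read 39.1, 88.1, 98.2 and 106 in DMSO, 51.8, 77.6, 93.7 and 48.2 in SPI-24, and 21.3, 22 and 21.4 in SPI-77 libraries. The SPI-77 values were nearly equal and all below the lowest of the other groups. Pcdhb7, 1 of the 3 beta genes with the highest counts, read 40.2, 134, 82.7 and 112 in DMSO, 59.3, 69.0, 57.1 and 46.4 in SPI-24, and 18.7, 34.1 and 25.0 in SPI-77 libraries, again without overlap.

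The 3 largest beta fold changes belonged to Pcdhb11, Pcdhb21 and Pcdhb6, the first and second of them genes of low count. Pcdhb11 (-2.50 ± 0.77) read 11.5, 22.3, 30.9 and 39.3 in DMSO, 30.2, 20.7, 40.9 and 52.4 in SPI-24, and 6.66, 9.90 and 0 in SPI-77 libraries. Its SPI-77 values lay below all others, by as little as the gap from 9.90 to 11.5. Pcdhb6 (-1.81 ± 0.43) read 44.1 to 76.96 in DMSO, 38.8 to 67.4 in SPI-24 and 7.99 to 22 in SPI-77 libraries. Pcdhb21 (-1.98 ± 0.91) stood at 7.95 to 12.1 in DMSO and 0 to 4.00 in SPI-77, with 57.2 in SPI-24 4 against 3.23 to 12.1 in the other SPI-24 libraries.

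Not all abundant beta genes met the call rule. Pcdhb22 read 76.98 to 148 in DMSO, 72.8 to 225 in SPI-24 and 92.4 to 112 in SPI-77 libraries, and Pcdhb20 read 59.8 to 148, 44.0 to 98.1 and 46.6 to 87.5, so the groups of both overlapped. Their log2 fold changes with SPI-77 were -0.21 (95% interval -0.96 to 0.54) and -0.67 (-1.49 to 0.14). A 2-fold reduction thus lies outside the interval for Pcdhb22 and inside it for Pcdhb20. Fold changes along the beta array thus ranged from -2.50 to -0.21.

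In the gamma array Pcdhga4, Pcdhga6, Pcdhgb1, Pcdhgb2, Pcdhgb6 and Pcdhgc3 met the call rule with SPI-77. Pcdhgc3 read 271, 394, 208 and 299 in DMSO, 312, 268, 166 and 471 in SPI-24, and 165, 147 and 92.8 in SPI-77 libraries. The SPI-77 values were below all others, with SPI-24 3 (166) and SPI-77 1 (165) next to each other. Pcdhgc5, the most abundant gamma gene by count, read 282, 542, 174 and 334 in DMSO, 273, 283, 103 and 541 in SPI-24, and 149, 169 and 87.5 in SPI-77 libraries. Here all SPI-77 libraries were below all DMSO libraries, but SPI-24 3 lay among them, and the fold change (-1.23 ± 0.50) did not meet the call rule and was 0.21 once the medium spiny score entered the fit. Pcdhgc4 read 63.2 to 108 in DMSO, 21.7 to 105 in SPI-24 and 38.5 to 66.6 in SPI-77 libraries, with overlap and the smallest gamma fold change (-0.63 ± 0.47).

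The 3 gamma genes with the largest fold changes, Pcdhga3 (-2.48 ± 0.90), Pcdhgb8 (-2.47 ± 0.91) and Pcdhga9 (-2.43 ± 0.82), did not meet the call rule, and each stood at 0 in SPI-77 3. Pcdhga3 read 27.6 to 62.1 in DMSO, 21.5 to 63.8 in SPI-24, and 26.6, 14.3 and 0 in SPI-77 libraries. In SPI-77 1 it was thus just below the lowest DMSO library. Pcdhgb8 read 25.3 to 65.8 in DMSO and 22.6, 19.8 and 0 in SPI-77, and Pcdhga9 read 22.1 to 43.6 in DMSO and 11.99, 14.3 and 0 in SPI-77 libraries. In SPI-77 3 a normalized count of 5.35 is worth 3 reads, so a 0 there allows a level of up to that value from counting error alone.

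**Figure D3:**
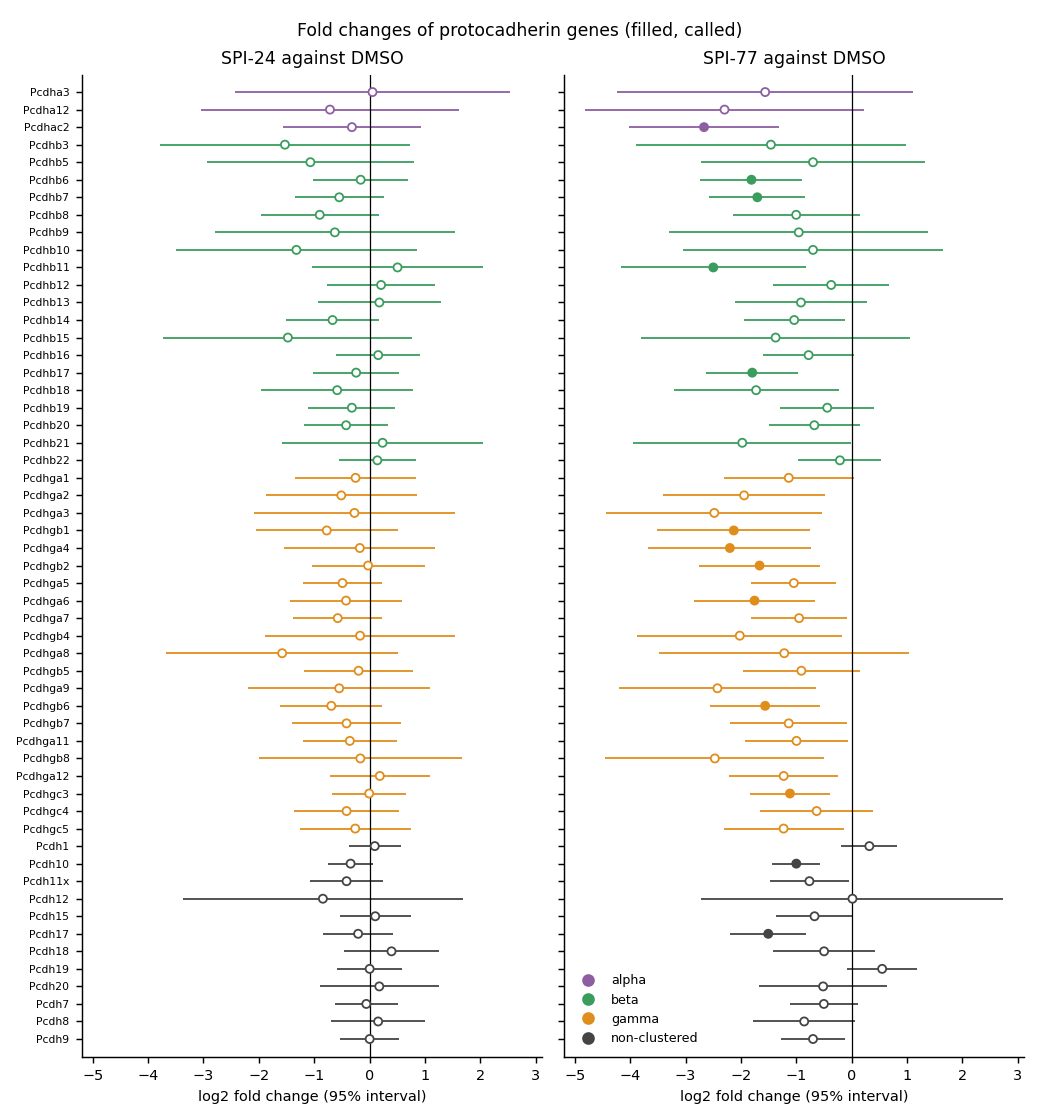
Log2 fold changes of the 55 protocadherin genes with 95% intervals from limma, for SPI-24 (left) and SPI-77 (right) against the same 4 DMSO libraries; filled points met the call rule. All SPI-24 points are open, and all 43 clustered SPI-77 points lie left of 0.

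Of the 12 non-clustered genes, 9 had fold changes below 0 with SPI-77 and 3 above, with a median of -0.59. Only Pcdh10 and Pcdh17, both of the delta-2 group, met the call rule, and only Pcdh19, also delta-2, had all SPI-77 libraries above all DMSO libraries. Their RefSeq promoter windows (build GRCm38.p6, 250 bases before to 50 after the annotated start, 5′ to 3′ on the strand of the gene) are shown because these are the non-clustered genes whose SPI-77 and DMSO libraries did not overlap; capitals mark the CCAAT box, the binding motif of the factor NF-Y, as CCAAT or, on the other strand, ATTGG. The windows lie at chr3:45378148-45378447 on the plus strand (Pcdh10), chr14:84443313-84443612 on the plus strand (Pcdh17) and chrX:133688944-133689243 on the minus strand (Pcdh19).
Pcdh10: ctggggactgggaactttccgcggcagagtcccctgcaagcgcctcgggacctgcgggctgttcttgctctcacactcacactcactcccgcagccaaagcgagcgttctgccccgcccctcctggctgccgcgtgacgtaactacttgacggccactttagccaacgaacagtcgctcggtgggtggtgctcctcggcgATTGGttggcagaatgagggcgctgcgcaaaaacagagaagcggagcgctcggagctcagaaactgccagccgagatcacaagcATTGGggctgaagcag
Pcdh17: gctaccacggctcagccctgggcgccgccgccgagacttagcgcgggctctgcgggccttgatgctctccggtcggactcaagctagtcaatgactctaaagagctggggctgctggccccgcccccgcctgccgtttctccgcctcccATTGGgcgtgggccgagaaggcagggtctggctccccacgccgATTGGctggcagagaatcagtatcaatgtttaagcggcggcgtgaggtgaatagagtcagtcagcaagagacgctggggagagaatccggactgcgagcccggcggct
Pcdh19: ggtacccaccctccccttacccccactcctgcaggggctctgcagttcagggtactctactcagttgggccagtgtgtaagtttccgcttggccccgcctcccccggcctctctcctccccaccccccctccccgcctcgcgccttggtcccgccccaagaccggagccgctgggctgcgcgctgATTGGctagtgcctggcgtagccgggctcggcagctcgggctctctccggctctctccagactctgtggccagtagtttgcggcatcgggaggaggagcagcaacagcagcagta

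Windows of 300 bases were present for 9 of the 12 non-clustered genes. A CCAAT box on either strand was found in 8 of these 9 and in 37.4% of 32851 mouse promoter windows of the same length, a motif picked after the letters had been read. Pcdh7 was the 1 without it. In the windows shown, the first base of the box lay 50 bases before and 34 bases after the start of Pcdh10, 101 and 58 bases before that of Pcdh17, and 65 bases before that of Pcdh19, so it was present in genes of either direction. CGCT, the core letters of the element shared by most clustered promoters, occurred on either strand in all 9 and in 61.8% of all windows, and TATAAA in 2 of 9 (Pcdh8 and Pcdh15) and 13.6%. These are matches of letters and say nothing of binding.

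Pcdh10 (chromosome 3, 45378398 to 45435623, GRCm38), which guides the growth of striatal axons in mice, was the non-clustered gene with the second highest count. It read 889, 1538, 1262 and 1825 in DMSO, 1030, 922, 1099 and 1168 in SPI-24, and 718, 670.0 and 612 in SPI-77 libraries. The SPI-77 libraries were close to each other and below all 8 others, and the SPI-24 libraries lay in the lower range of the DMSO libraries. The mean with SPI-77 was 48.4% of that with DMSO, a log2 fold change of -1.0 ± 0.20 (SE), and with SPI-24 it was 76.5%.

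Pcdh17 (chromosome 14, 84443563 to 84539002), which controls the clustering of synaptic vesicles in the circuits between cortex and basal ganglia in mice, read 285, 546, 407 and 658 in DMSO, 382, 287, 346 and 620.1 in SPI-24, and 198, 175 and 114 in SPI-77 libraries. All SPI-77 values were again below all others. The mean with SPI-77 was 34.3% of the DMSO mean (log2 fold change -1.51 ± 0.32), the lowest of the non-clustered genes, and with SPI-24 it was 86.2%.

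Pcdh19 (chromosome X, 133582860 to 133688987), a gene mutated in a form of early epilepsy in humans, read 244, 194, 197 and 255 in DMSO, 254, 317, 248 and 119 in SPI-24, and 413, 287 and 286 in SPI-77 libraries. All SPI-77 libraries were higher than all DMSO libraries, whereas SPI-24 2 exceeded 2 of the 3 SPI-77 libraries. The log2 fold change was 0.55 (95% interval -0.08 to 1.18), did not meet the call rule and was -0.20 once the medium spiny score entered the fit. Pcdh19 is X-linked, and the DMSO libraries with low Xist, 2 and 4, had Pcdh19 values of 194 and 255, also below those of SPI-77.

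**Figure D4:**
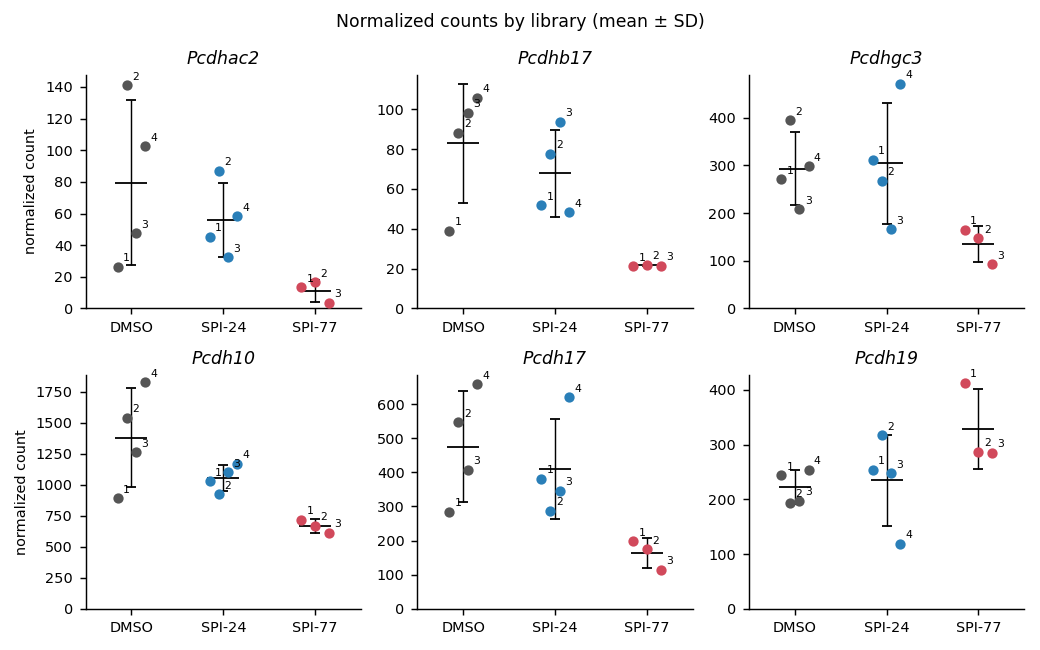
Normalized counts of Pcdhac2, Pcdhb17, Pcdhgc3, Pcdh10, Pcdh17 and Pcdh19 in each library (points, with the replicate number) and the mean with its SD (bars) for 4 DMSO, 4 SPI-24 and 3 SPI-77 libraries. In the first 5 genes the SPI-77 points lie below all others, and for Pcdh19 the 3 SPI-77 points (286 to 413) lie above the 4 DMSO points (194 to 255).

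The other delta-1 and delta-2 genes overlapped between groups. Pcdh1, the most abundant protocadherin by far (392 counts per kb in DMSO), read 2090 to 4898 in DMSO, 2754 to 4151 in SPI-24 and 3831 to 4470 in SPI-77 libraries. Its fold change with SPI-77 was 0.32 (95% interval -0.19 to 0.82), so the interval leaves out changes as low as the medians of the clustered classes. Pcdh9 read 401 to 777 in DMSO, 461 to 732 in SPI-24 and 268 to 536 in SPI-77 libraries. Pcdh7 read 298 to 680 in DMSO, 295 to 510 in SPI-24 and 229 to 411 in SPI-77 libraries, and X-linked Pcdh11x read 80.4 to 170, 62.9 to 138 and 57.2 to 97.2.

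All 3 of these delta-1 genes had fold changes below 0 with SPI-77, -0.70 ± 0.27 for Pcdh9, -0.50 ± 0.29 for Pcdh7 and -0.76 ± 0.33 for Pcdh11x, none of which met the call rule. Of the remaining delta-2 genes, Pcdh8, which neuronal activity induces in rats, read 182 to 336 in DMSO, 152 to 419 in SPI-24 and 60.7 to 201 in SPI-77 libraries (-0.86 ± 0.42). Pcdh18 read 28.1 to 40.8 in DMSO, 21.6 to 61.4 in SPI-24 and 16.0 to 30.4 in SPI-77 libraries (-0.50 ± 0.43). Delta-2 genes thus included both called non-clustered genes and Pcdh19, the 1 gene with all SPI-77 libraries above all DMSO libraries.

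Pcdh12, Pcdh15 and Pcdh20 belong to neither delta group. Pcdh15, a component of the tip links of inner ear hair cells, read 76.98 to 164 in DMSO, 119 to 165 in SPI-24 and 57.3 to 123 in SPI-77 libraries (-0.67 ± 0.32). Pcdh20 read 238, 233, 51.8 and 299 in DMSO, so that DMSO 3 alone lay below the 96.4 to 144 of the SPI-77 libraries (-0.52 ± 0.53). Pcdh12, a protein of endothelial cell junctions, was at the edge of the filter, with 2.30 to 7.95 in DMSO, 0 to 18.3 in SPI-24 and 0 to 15.4 in SPI-77 libraries, and allows no statement on a change (0.01 ± 1.26).

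The medium spiny score was low in all SPI-77 libraries, and 2 SPI-24 libraries offer a view at a like score. SPI-24 2 and SPI-24 3 had scores of 8.31 and 8.16, inside the 7.85 to 8.44 of the SPI-77 libraries, and clustered sums of 2303 and 1746, above the 918 to 1291 of all SPI-77 libraries. By class, the gamma sum of SPI-24 3 (724) lay inside the SPI-77 range of 460.6 to 824.5, while its alpha and beta sums lay above theirs. The likeness did not extend to every marker score. Both SPI-24 libraries lay above SPI-77 in thalamic score (10.6 and 11.4 against 9.74 to 10.4). They lay below it in choroid plexus score (6.55 and 5.87 against 8.09 to 9.38). Pcdhac2 read 87.1 and 32.3 and Pcdhb17 read 77.6 and 93.7 in these SPI-24 libraries, above every SPI-77 value. Pcdhgc3 (268 and 166) and Pcdhgc5 (283 and 103) lay well above the SPI-77 range in SPI-24 2, whereas in SPI-24 3 the first was next to that range and the second inside it. With this score as a covariate in the limma fit, 0 protocadherin genes and 0 of all genes were called with SPI-77, while the median fold changes were -2.38 over the alpha, -1.36 over the beta, -0.92 over the gamma and -0.61 over the non-clustered genes. The medium spiny score did not overlap between SPI-77 and DMSO libraries, and 13 of its 23 markers were themselves called lower with SPI-77. The fit with this covariate thus cannot separate the score from the treatment. The part of tissue makeup in the SPI-77 values was not tested beyond these measurements.

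**Figure D5:**
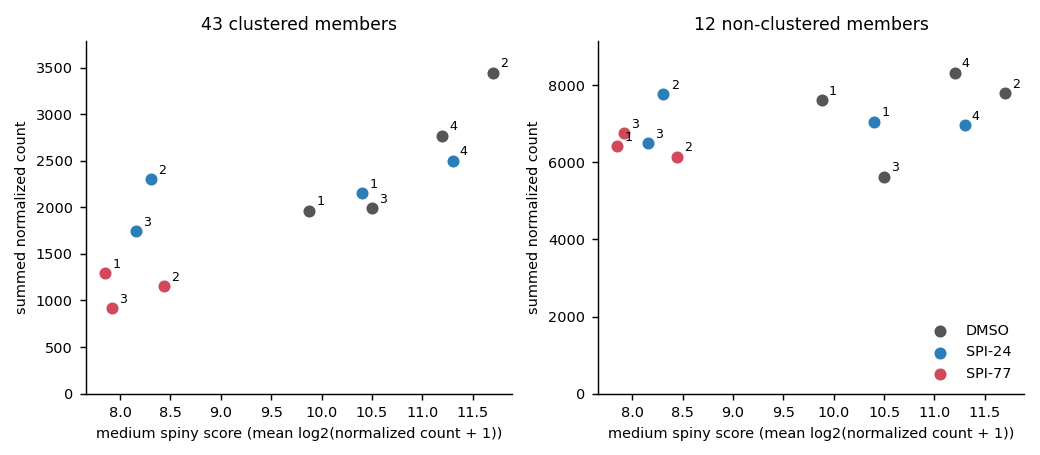
Summed normalized counts of the 43 clustered (left) and 12 non-clustered (right) protocadherin genes in each library against its medium spiny score, with replicate numbers beside the points. At scores of 8.16 and 8.31 the SPI-24 points (1746 and 2303) lie above the SPI-77 points (918 to 1291) on the left, while the groups overlap on the right. The sum on the right is weighted by Pcdh1, which had the highest count of the 12 genes in every library.

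The calls with SPI-77 rested on the libraries as a set. With Xist (high or low) as a covariate in the fit, an alternative chosen after seeing the data, 10 of the 55 were called, all lower. That fit called 1236 of all 16768 genes lower and 308 higher, against 885 and 188 in the main fit. The median fold changes with the Xist covariate were -2.97 over the alpha, -1.41 over the beta, -1.47 over the gamma and -0.87 over the non-clustered genes. When any 1 of DMSO 2, DMSO 4, SPI-77 1 and SPI-77 3 was left out, 0 of the 55 protocadherin genes and 0 of all genes were called. Without SPI-24 2, 7 of the 55 were called, beside 737 of all genes called lower. Without SPI-24 1 or DMSO 3 it was 8, beside 773 and 601 of all genes. Without SPI-24 4 it was 19, with Pcdhb3 and Pcdhb15 among them, beside 1219 of all genes. No fold change of the 13 called genes changed sign in the 24 alternatives run, and the lowest and highest values were -3.09 and -1.78 for Pcdhac2, -1.73 and -0.61 for Pcdh17 and -1.21 and -0.62 for Pcdh10. Of the 13, Pcdhgc3 came nearest to 0, from -1.28 to -0.16, the last when the medium spiny score entered the fit (adjusted p = 0.849 in limma), and Pcdhgb6 reached -0.55 in the same fit.

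SPI-77 and SPI-24 were also set against each other, in a comparison that shares the SPI-77 libraries on which the family was picked and for which doses are not known. Of the 55 genes 5 were called lower with SPI-77 (Pcdhac2, Pcdhb6, Pcdhb11, Pcdhb17 and Pcdh17), against 2.45% of all genes, and 0 higher, against 0.34%. All SPI-77 libraries lay below all SPI-24 libraries for 12 of the 55 genes, where 15.3% of all genes did, and above them for 0, where 16.1% did. The log2 fold changes were -2.35 ± 0.62 for Pcdhac2, -3.0 ± 0.77 for Pcdhb11, -1.65 ± 0.43 for Pcdhb6, -1.55 ± 0.39 for Pcdhb17 and -1.30 ± 0.32 for Pcdh17. The medians were -1.62 over the alpha, -0.37 over the beta, -1.11 over the gamma and -0.68 over the non-clustered genes, beside 0.04 over all genes. The beta median moved with 1 library and with the tool: it was -0.85 without SPI-24 4, -0.90 with edgeR and -0.89 with DESeq2. No gamma gene was among the called, although 20 of 21 had fold changes below 0. The calls depended on single libraries here too: 0 were made without DMSO 3, without SPI-24 2, 3 or 4, or without any of the SPI-77 libraries, left out one at a time, 2 without DMSO 2, 3 without SPI-24 1 and 7 without DMSO 1, and 0 when the fit included the score of medium spiny markers. The fits without DMSO 2, SPI-24 1 and DMSO 1 called 263, 426 and 707 of all genes lower, against 411 in the main fit.

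The genes known to control clustered protocadherin promoters were read from a list of 16, all of which were tested. CTCF and cohesin loop a distant enhancer to the chosen promoter, and SMCHD1 and the DNA methyltransferases help to keep the others silent. With SPI-77 against DMSO, 2 of the 16 were called lower and 0 higher, against 5.28% and 1.12% of all genes, and 15 had fold changes below 0, as did 8512 of all 16768 genes, with a median of -0.64 beside -0.01. The called genes were Rad21, a cohesin subunit (a mean of 473 against 1262, -1.32 ± 0.29), and Smchd1 (101 against 255, -1.30 ± 0.37), and Ctcf itself had 322 against 618 (-0.90 ± 0.23) without reaching a 2-fold change. With SPI-24 0 of the 16 were called, and the largest fold changes were -0.81 ± 1.02 for Dnmt3b, -0.29 ± 0.17 for Smc3 and 0.26 ± 0.18 for Dnmt1.

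Of 20 genes whose proteins bind or process protocadherins, 1 was called with SPI-77, Adam10, the protease that sheds gamma protocadherins (179 against 515, -1.43 ± 0.34), and the list's median was -0.23. Of all genes 5.28% were called lower and 1.12% higher, so 1 of 20 is near that background, and the same shares stand beside the 2 lists that follow. Of 15 classical cadherins tested, 2 were called lower, Cdh8 (233 against 486, -1.08 ± 0.27) and Cdh11 (150.2 against 378, -1.20 ± 0.36), and 1 higher, Cdh24 (729 against 326, 1.26 ± 0.40), with a median of -0.77. Of 14 other cadherin superfamily genes 1 was called, Fat3 (235 against 601, -1.34 ± 0.23), with a median of 0.01. Against SPI-24 the SPI-77 libraries gave calls for Rad21 (1 of 16), Adam10 (1 of 20), Cdh8 and Cdh11 (2 of 15) and Fat3 (1 of 14), all lower. In that comparison 2.45% of all genes were called lower and 0.34% higher. With SPI-24 against DMSO 0 genes of the 3 lists were called, and the largest fold changes were 0.70 ± 0.25 for Ret, 0.44 ± 0.37 for Pdcd10 and -0.34 ± 0.30 for Nlgn1 among the binding partners. Among the classical cadherins they were -0.54 ± 0.68 for Cdh12, 0.35 ± 0.48 for Cdh7 and -0.27 ± 0.43 for Cdh9, and among the others -1.22 ± 0.54 for Dchs2, -0.55 ± 1.24 for Fat4 and -0.53 ± 0.43 for Celsr1.

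The filter left out 11 names, Pcdha1, Pcdha2, Pcdha5, Pcdha6, Pcdha7, Pcdha9, Pcdha11, Pcdhac1, Pcdhb2, Pcdhb4 and Pcdhga10. The third highest value over the libraries, on which the filter acts, was 9.83 for Pcdhb2, 9.48 for Pcdha7 and 8.04 for Pcdhb4 just below the threshold, and 10.7 for Pcdh12, 12.1 for Pcdhb21 and 13.2 for Pcdha3 just above it. A gene near the threshold can pass through 1 group alone, so sums were also taken over every listed name. Over all 54 clustered names they were 1996 to 3571 in DMSO, 1789 to 2561 in SPI-24 and 930.1 to 1320.0 in SPI-77 libraries, and over all 11 alpha names 46.0 to 262, 100.2 to 145 and 3.60 to 37.3. In SPI-77 3, 10 of the 11 alpha names stood at 0.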

How the data were processed

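RNA of striatal tissue was sequenced with a stranded poly(A) kit, giving 4 DMSO, 4 SPI-24 and 3 SPI-77 libraries, grouped by the labels. According to the study's methods, the authors trimmed reads with cutadapt, aligned them to GRCm38 with STAR and Ensembl genes, discarded reads mapping to more than 1 region and counted genes with htseq-count. No source used here gives the tool versions or the Ensembl release. The deposited values are a signal, reads divided by a DESeq2 size factor, and reads were recovered from them as whole multiples of 1 step per library (100.0% of values within 0.1 step), 10.2 to 33.8 M per library. Reads over exons shared by several genes are not assigned by such counting, so alpha and gamma values rest mostly on variable exons, and whether counting used strand is not stated. The table's fold changes and p-values, the authors' own comparisons, were not used. The p-values and intervals of the main fit come from limma and rest on the spread between libraries within groups, pooled over all 3 groups. The SPI-24 libraries thus enter the p-values of SPI-77 against DMSO. Pcdhb3, for example, read 13.2 to 19.98 in SPI-77 and 28.7 to 78.8 in DMSO libraries, without overlap. It read 0 in SPI-24 4, its SE for SPI-77 against DMSO was 1.12, and it was not called. The floors of 3 reads cover counting error only.

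Genes that reached a value of 10 in 3 or more libraries were tested with limma 3.58.1 (R 4.3.3; trend, robust) on log2(value + 1), which understates changes of low genes, with 3 groups in 1 fit and Benjamini-Hochberg adjustment over 16768 genes. A call needed an adjusted p below 0.05 and a 2-fold change. The fit was also run on simulated reads with 1 fixed spread for all genes and no differences in tissue or sex. These libraries vary in both, so that run says nothing on the calls made here. Alternatives were pseudocounts of 0.5 and 5, no filter, TMM, edgeR 4.0.16, DESeq2 1.42.0, a replicate block, the medium spiny score or, chosen after seeing the data, the Xist class (a normalized count above or below 1000) as a covariate, the compared groups alone, no fold threshold, and leaving out libraries. Genes named were Pcdhac2, all non-clustered and C-type genes, and per array the 3 with the highest DMSO mean and the 3 with the largest SPI-77 fold change, plus called list genes and otherwise leading ones. Genes named only by a call or as the lowest or highest of a range fall outside this rule and were chosen after their values were seen. The family, the lists and the tests were chosen with earlier results of these data known. Of 20957 gene identifiers, 99.8% matched GENCODE annotation. Names annotated with GRCm38 but not analysed here were Pcdha4, Pcdha8 and Pcdhb1.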

Additional observations from a re-analysis of the deposited data

Results flagged for a closer look

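Within groups of 4 libraries, the gap of the highest or lowest library to its neighbour was set against the range of the group, on the log2 scale, for the 27 named genes and the 4 class sums. Of 62 groups tested 3 held a library that stood apart, and chance gives about 1 in 20. Pcdha3 read 0.00 in SPI-24 4 against 9.48 to 15.1 in the other SPI-24 libraries. Pcdhb20 read 43.95 in SPI-24 4 against 90.5 to 98.1. Pcdh20 read 51.84 in DMSO 3 against 233 to 299 in the other DMSO libraries. SPI-24 4 also held the most kept genes at 0 of all libraries (1464), and the part of this in its protocadherin values was not tested.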

How the results depend on the processing

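With SPI-24 against DMSO 0 protocadherin genes were called under every alternative run. With SPI-77 against DMSO, where 13 were called, the number was 0 when the medium spiny score was a covariate, 7 without both replicate 4 libraries and 0 without SPI-24 4 and SPI-77 3 together, an alternative chosen after seeing the data, and it ran from 0 to 19 when single libraries were left out. The other alternatives gave 9 to 17, and edgeR called 9, DESeq2 17. The main fit called 885 of all genes lower. The number was 460 without both replicate 4 libraries and 1219 without SPI-24 4, the fit that gave 19. It was 948 with edgeR, 1217 with DESeq2 and 734 to 1533 over the other alternatives, the last with no fold threshold. With SPI-77 against SPI-24, where 5 were called, edgeR gave 2, DESeq2 8, the covariate 0, the fit without both replicate 4 libraries 0, the fit of only these groups 3 and that without SPI-24 4 and SPI-77 3 together 0, and leaving out single libraries gave 0 to 7. Here the main fit called 411 of all genes lower, edgeR 357, DESeq2 829 and the fit of only these groups 572. Without DMSO 1, which gave the 7, it was 707. Where 0 were called with SPI-77 against DMSO, 0 genes of all those tested were called. Fewer libraries enter some of these fits, and the cause of the other changes was not tested.

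The median fold change of the beta genes with SPI-77 against DMSO was -1.39 with the replicate block, -1.36 with the medium spiny covariate and -1.41 with Xist (high or low) as a covariate, against -1.0. With SPI-77 against SPI-24, where it was -0.37, it was -0.90 with edgeR, -0.89 with DESeq2, -0.89 with the medium spiny and -0.98 with the Xist covariate, -0.85 without both replicate 4 libraries, and -0.85 to -0.24 when single libraries were left out, the lowest without SPI-24 4. The non-clustered median of this comparison was -0.98 with the Xist covariate, against -0.68. For these medians edgeR, DESeq2, the Xist covariate and leaving out pairs of libraries were chosen after seeing the data. The other medians moved by less than the SD between libraries of a group, which for the 3 alpha genes is wide: their median with SPI-77 against DMSO was -1.08 with a pseudocount of 5 and -2.74 with 0.5.

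Same-numbered libraries of different groups deviated from their group means with correlations of -0.16 to 0.21 (10 pairs), so the numbers were not taken to pair the animals. With the replicate number as a block, 10 protocadherin genes were called with SPI-77 against DMSO, 5 with SPI-77 against SPI-24 and 0 with SPI-24. That fit called 734, 379 and 0 of all genes lower in these comparisons.

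Of the fold changes of the 27 named genes, none of the called ones changed sign under any alternative. Among those not called 63 of 621 values changed sign with SPI-24, 10 of 460 with SPI-77 against DMSO and 3 of 529 with SPI-77 against SPI-24. The medium spiny covariate, which did not overlap between SPI-77 and DMSO libraries, turned Pcdhgc5 from -1.23 to 0.21 and Pcdh19 from 0.55 to -0.20 with SPI-77. Depth limits the alpha genes most, as 3 reads are worth normalized counts of 1.40 to 5.35.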
